A study of Mus musculus with 10 samples.

Results

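The NRF2 oxidative stress genes described here are 10 genes of a mouse liver RNA-seq count matrix, taken by their symbols: Nfe2l2, Keap1, Nqo1, Gclc, Gclm, Hmox1, Txnrd1, Srxn1, Slc7a11 and Osgin1. They are 10 of the 55291 genes listed, and all 10 were among the 17015 genes with enough counts to test. Slc7a11 passed that filter through the CCl4-treated livers alone, since no vehicle liver held more than 5 of its counts.

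Nfe2l2 encodes NRF2, a transcription factor that switches on genes for glutathione synthesis, thioredoxin recycling and the disposal of quinones and haem. In resting cells KEAP1 delivers the NRF2 protein to degradation, and oxidants or electrophiles that modify cysteines of KEAP1 let NRF2 accumulate, bind DNA with small MAF proteins at antioxidant response elements and raise its targets. In liver the pathway is known for protecting hepatocytes from drugs and toxins that are turned into reactive products, as CCl4 is by cytochrome P450 enzymes of the hepatocytes around the central vein.

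All 10 livers came from female mice of 16 to 20 weeks of a Jackson Laboratory line, bred in house, carrying a Cas9 gene that Cre switches on, and every mouse received by tail vein an AAV8 virus that carries a guide and Cre under the hepatocyte promoter TBG. The groups NTC-Veh (2 livers) and NTC-CCl4 (3 livers) had a non-targeting guide, so the controls also carried virus, Cre and Cas9, and the groups sgBap1-Veh (2 livers) and sgBap1-CCl4 (3 livers) had a guide against Bap1, the gene of a nuclear deubiquitinase. On day 10 the mice received CCl4 (1 part in 9 parts olive oil, 10 microlitres per g into the abdomen) or olive oil as vehicle, and livers were taken 48 hours later. Editing is directed to hepatocytes, whereas each library holds RNA of the whole liver, so fewer cells of a type and less RNA per cell cannot be told apart. Total estimated counts ran from 33047904 (sgBap1-Veh replicate 2) to 52199904 (sgBap1-CCl4 replicate 1). At that depth 3 counts correspond to between 0.0511 and 0.112 CPM, where CPM is counts per 1000000 counts of the TMM-normalised library, a scale adjusted so that most genes keep their level between libraries. Floors and counting intervals cover counting error only.

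The guide labels were checked on Bap1 itself. Bap1 lay at 34.8 and 34.8 CPM in the NTC-Veh livers, 17.5 and 19.5 CPM in the sgBap1-Veh livers, 30.1, 31.5 and 29.5 CPM in the NTC-CCl4 livers and 17.0, 21.8 and 19.1 CPM in the sgBap1-CCl4 livers. Every liver with the Bap1 guide was below every liver with the non-targeting guide. The log2 fold change was -0.91 ± 0.119 (SE) with vehicle and -0.65 ± 0.0958 with CCl4, with adjusted p of 0.0208 and 0.0295 from edgeR's quasi-likelihood test with Benjamini-Hochberg adjustment over all genes tested, the source of every adjusted p given without another tool. Of 17 alternative settings, 6 and 9 moved that adjusted p past 0.05, to at most 0.12 and 0.147. With vehicle, it was 0.0577 and 0.104 without NTC-Veh replicates 1 and 2, and 0.12 and 0.0624 without sgBap1-Veh replicates 1 and 2. With CCl4, it was 0.0546 and 0.0545 without NTC-Veh replicates 1 and 2, 0.147, 0.0751 and 0.0732 without NTC-CCl4 replicates 1, 2 and 3, and 0.0917 without sgBap1-CCl4 replicate 1. The tissue label was checked on 7 hepatocyte genes, led by Alb, whose summed level lay between 70488 and 156320 CPM in the 10 livers.

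NTC-CCl4 replicate 2 stood apart for these genes. It was the highest of its 3 livers for 9 of the 10 members, and for 63 of 77 other genes of the wider oxidative stress lists (81.8%), against 6211 of all 17015 genes tested (36.5%). Its members lay at a median of 0.49 log2 units above the other 2 livers, beside 0.32 for the wider lists and 0.003 for all genes. Its erythroid sum of 1610.4 CPM was also the highest of the 10 livers, whereas its hepatocyte sum of 88433 CPM lay near the 81854 and 78206 CPM of the other 2 livers. In sgBap1-CCl4 replicate 2, adipocyte genes summed to 527.7 CPM, where the other 9 livers held 5.76 to 30.5 CPM. Where leaving out NTC-CCl4 replicate 2 changed a call or moved a value by a large amount, both values are given.

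The mRNAs of the pathway were present at very different levels in control livers. Per kb of exon, mean levels in the NTC-Veh livers ran in the order Gclc (42.1 CPM per kb), Osgin1 (40.8), Gclm (33.5), Nfe2l2 (29.1), Txnrd1 (18.7), Srxn1 (17.7), Keap1 (12.6), Hmox1 (8.755), Nqo1 (7.16) and Slc7a11 (0.00297). Of neighbours in this order, Gclc and Osgin1 overlapped between livers, as did Hmox1 and Nqo1. After CCl4 the order differed. In the NTC-CCl4 livers Gclc came first at 113.5 CPM per kb and Osgin1 second, followed by Srxn1 at 75.4 and Hmox1 at 59.0. Without NTC-CCl4 replicate 2 the order was Osgin1 (95.02), Gclc (73.0), Hmox1 (61.4) and Srxn1 (47.8). Gclm stood far lower, at 22.7 with that liver and 20.9 without it, as did Nqo1, often used as the marker of NRF2 activity, at 13.5 and 11.5.

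**Figure D1:**
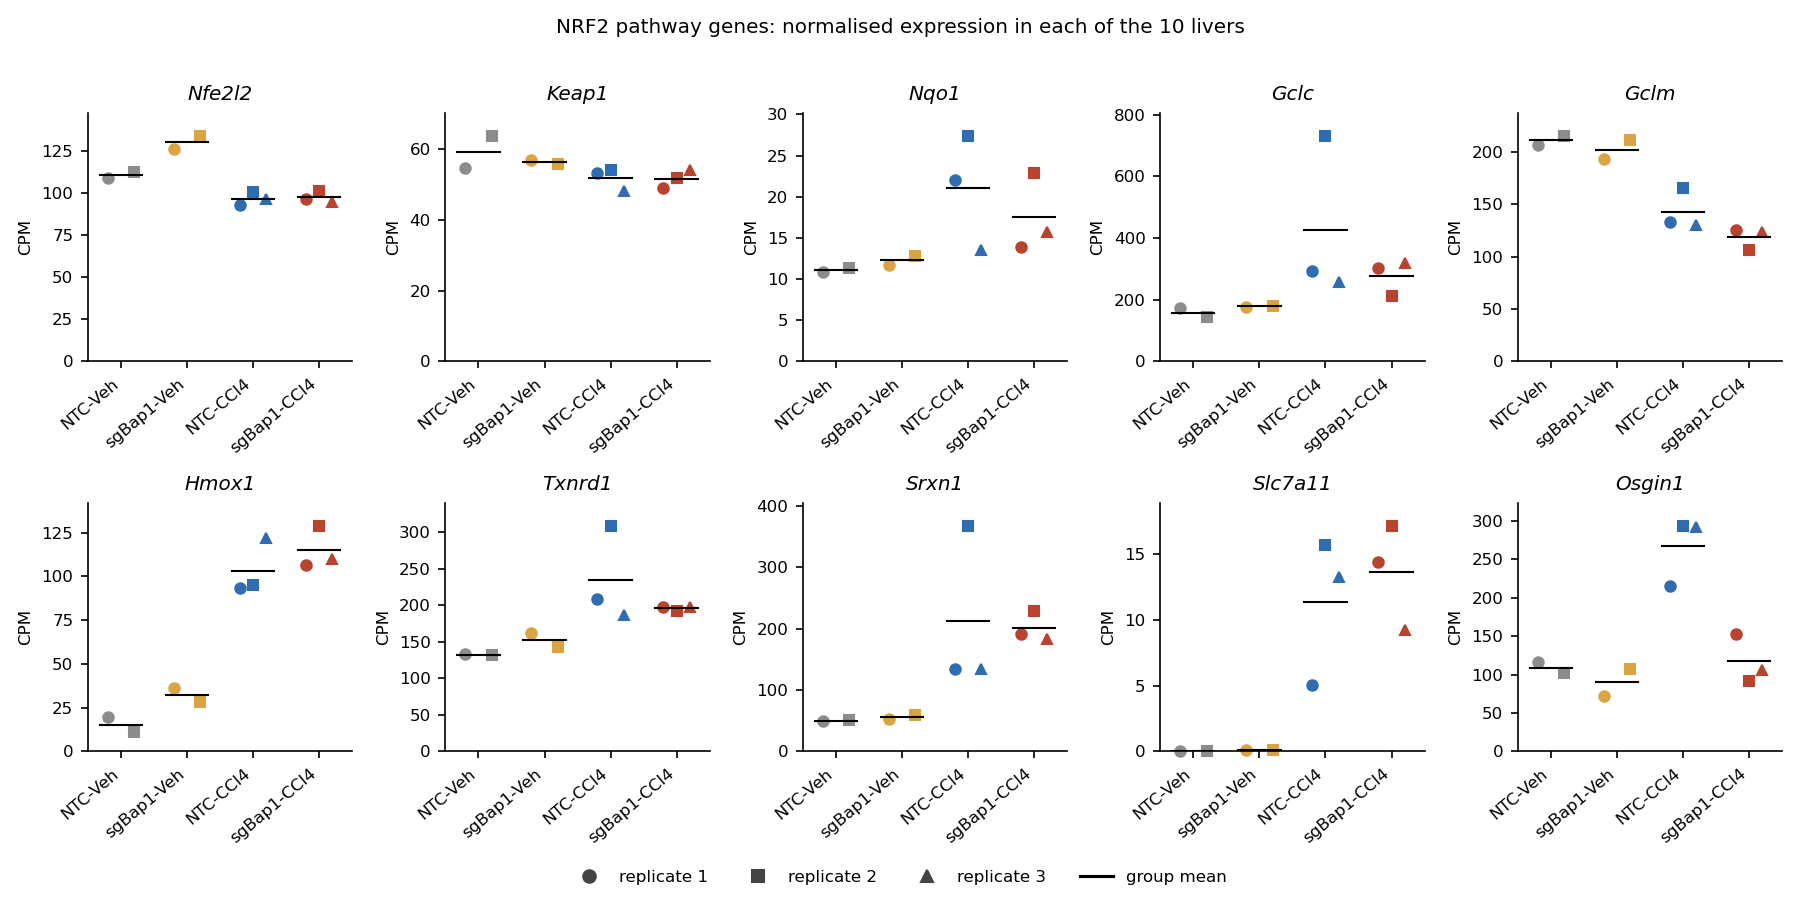
Normalised expression (CPM, vertical axis) of the 10 genes in each liver, by group; symbols give the replicate and bars the group mean. Hmox1, Srxn1 and Slc7a11 lie higher and Gclm lies lower in the livers given CCl4 than in those given vehicle, and NTC-CCl4 replicate 2 (square) tops its group in 9 of 10 panels.

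Promoters were searched for the core of the antioxidant response element, TGACNNNGC, on both strands, in RefSeq windows from 250 bases before to 50 after the start (GRCm38.p6). Of the 10 genes, 8 had a window, with 3 start sites for Txnrd1, and Gclc and Hmox1 had none. The letters were found in 4 of these 8 genes (Nfe2l2, Gclm, Txnrd1 and Srxn1), and in 3781 of 27025 genes overall (14%). Among wider list genes with a window they were found in 16 of 69 (23.2%). Counted by window, it was 4 of 10 for the members (40%), beside 12.4% of all windows. In Srxn1 the match lay 29 to 37 bases after the start. The other 3 are shown because this core is the element that NRF2 is known to bind, and because Gclm fell while Txnrd1 rose with CCl4 in NTC livers. The stretch of Nfe2l2 is chr2:75704879-75704913 on the minus strand (match 240 to 232 bases before the start), that of Gclm chr3:122245407-122245447 on the plus strand (134 to 126) and that of Txnrd1 chr10:82859098-82859138 on the plus strand (92 to 84). Capitals mark the match, which in Gclm and Txnrd1 reads on the opposite strand. A match describes the letters of the window and does not show binding.
Nfe2l2: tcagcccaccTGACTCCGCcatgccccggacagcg
Gclm: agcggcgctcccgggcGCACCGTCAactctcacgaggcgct
Txnrd1: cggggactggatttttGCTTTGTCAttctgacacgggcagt

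CCl4 against vehicle in NTC livers shows how the toxin alone moves the pathway at 48 hours, and the same comparison in sgBap1 livers shows it where hepatocytes had received the Bap1 guide. Slc7a11, which was bound to differ once it passed the filter, is left out of these counts. Of the other 9 genes, 6 rose and 1, Gclm, fell in NTC livers, at an adjusted p under 0.05. That compares with 27.4% of all genes tested called higher and 26.6% called lower. In sgBap1 livers 2 rose (Hmox1 and Srxn1) and 2 fell (Nfe2l2 and Gclm), beside 29% of all genes called higher and 28% called lower. The median log2 fold change of the 9 genes was 0.92 in NTC livers and 0.38 in sgBap1 livers, beside 0.03 and 0.04 for all genes. Without NTC-CCl4 replicate 2, 6 of the 9 genes were called in NTC livers (5 higher) and 6 in sgBap1 livers (4 higher). In NTC livers without NTC-Veh replicate 1, 4 rose and 2 fell, and in sgBap1 livers without sgBap1-Veh replicate 1, 1 rose and 2 fell. Scaling to library size alone moved the median change over every gene tested to 0.50 and 0.52 log2 units, and turned the direction of Nfe2l2 and Keap1. With that scaling 7 of the 9 genes were called higher and 0 lower in NTC livers and 7 higher and 1 lower in sgBap1 livers, where 8500 and 8614 of all genes were called higher and 2061 and 2388 lower. Between the Bap1 guide and the control guide edgeR called 0 of the 9 genes with vehicle, with CCl4 and in the test of whether CCl4 acted differently in the 2 genotypes, with 2 at an unadjusted p under 0.05 in each, and DESeq2 called 1, 1 and 0.

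**Figure D2:**
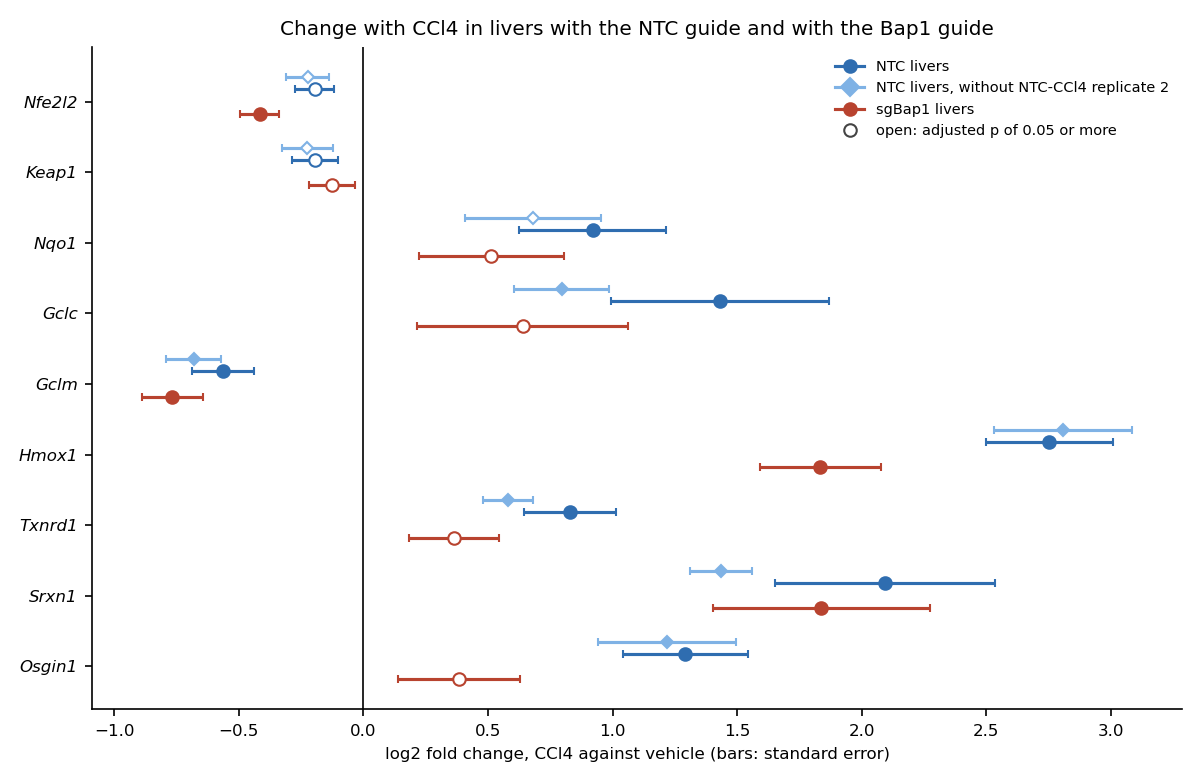
Log2 fold change of CCl4 against vehicle (horizontal axis) with its standard error for 9 of the genes, in NTC livers, in NTC livers without NTC-CCl4 replicate 2 and in sgBap1 livers; filled points have an adjusted p under 0.05. Slc7a11 is left out because its vehicle counts are too few for a fitted change. Gclc moves from 1.43 to 0.80 and Srxn1 from 2.09 to 1.43 without that liver, Gclm lies at -0.56 and -0.77, and library size scaling (not plotted) puts Nfe2l2 and Keap1 above 0.

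The regulator and its inhibitor moved little. Nfe2l2 (ENSMUSG00000015839.6, chr2:75675513-75704641, minus strand, GRCm38) lay at 109 and 112 CPM in the NTC-Veh livers, 126 and 134 in the sgBap1-Veh livers, 93.0, 100.3 and 96.3 in the NTC-CCl4 livers and 96.3, 100.8 and 94.8 in the sgBap1-CCl4 livers. All 6 livers given CCl4 lay below all 4 given vehicle, and the sgBap1-Veh livers were the highest. Nfe2l2 fell in sgBap1 livers, with a log2 fold change of -0.42 ± 0.0784 (adjusted p = 0.00117). In NTC livers it was -0.20 ± 0.0787 (adjusted p = 0.0571), which DESeq2 called at an adjusted p of 0.0311. Keap1 (ENSMUSG00000003308.15, chr9:21229730-21239361, minus strand), the adaptor that marks NRF2 for degradation, lay at 54.7 and 63.7 CPM in the NTC-Veh livers, 56.8 and 55.8 in the sgBap1-Veh livers, 53.3, 54.0 and 48.0 in the NTC-CCl4 livers and 49.1, 51.6 and 53.9 in the sgBap1-CCl4 livers. These values form a narrow band in which every CCl4 liver of a guide was below every vehicle liver of that guide. Keap1 did not pass the test in either genotype, with log2 fold changes of -0.19 ± 0.0919 (adjusted p = 0.0985) and -0.13 ± 0.0921 (adjusted p = 0.262), and the first was -0.30 (adjusted p = 0.0472) without NTC-Veh replicate 1 and -0.08 (adjusted p = 0.599) without NTC-Veh replicate 2. Scaled to library size, Nfe2l2 came to 0.28 and 0.07 and Keap1 to 0.27 and 0.35, which relative to the shifted median of all genes were -0.23 and -0.45 for Nfe2l2 and -0.23 and -0.17 for Keap1.

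The cystine and glutathione genes split. Slc7a11 (ENSMUSG00000027737.10, chr3:49892526-50443614, minus strand) encodes the light chain of the cystine importer xCT, which brings in the cysteine that limits glutathione synthesis. It held 1 and 2 counts in the NTC-Veh livers and 5 and 2 in the sgBap1-Veh livers, against 237, 833 and 509 in the NTC-CCl4 livers and 847, 1002 and 433 in the sgBap1-CCl4 livers. In CPM this was 0.0272 to 0.135 with vehicle, near or under the floor of 3 counts, and 5.05 to 17.2 with CCl4, so the gene went from barely detected to clearly present in all 6 treated livers. Pooled counts gave a ratio of 276.6 in NTC livers (1579 against 3 counts, exact 95% counting interval 94.5 to 1343) and 126.8 in sgBap1 livers (2282 against 7, interval 61.5 to 315.8). No test of CCl4 against vehicle is given for it, since it entered the genes tested through its treated livers alone.

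Gclc and Gclm encode the catalytic and the modifier subunit of glutamate-cysteine ligase, the first enzyme of glutathione synthesis, and both are textbook NRF2 targets. Gclc (ENSMUSG00000032350.9, chr9:77754535-77794485, plus strand) lay at 173 and 144 CPM in the NTC-Veh livers, 176 and 181 in the sgBap1-Veh livers, 292, 732 and 257 in the NTC-CCl4 livers and 303, 212 and 320.3 in the sgBap1-CCl4 livers. Every CCl4 liver was above every vehicle liver, and NTC-CCl4 replicate 2 was more than double any other. Gclc rose in NTC livers, by a log2 fold change of 1.43 ± 0.438 (adjusted p = 0.02295), and was 0.64 ± 0.424 in sgBap1 livers (adjusted p = 0.231). Without NTC-CCl4 replicate 2 the rise in NTC livers was 0.80 ± 0.19 (adjusted p = 0.00724) and that in sgBap1 livers also passed, at 0.64 ± 0.177 (adjusted p = 0.0128). The NTC call was lost without NTC-Veh replicate 1 (1.57, adjusted p = 0.0811) or 2 (1.31, adjusted p = 0.131), and with no filter on low counts or with the compared groups alone (adjusted p = 0.0752 and 0.1). Gclm (ENSMUSG00000028124.15, chr3:122245557-122270732, plus strand) lay at 206 and 215 CPM in the NTC-Veh livers, 193 and 211 in the sgBap1-Veh livers, 133, 165 and 130.0 in the NTC-CCl4 livers and 126, 107 and 124 in the sgBap1-CCl4 livers. Every CCl4 liver was below every vehicle liver, the opposite of Gclc. Gclm fell by 0.56 ± 0.123 on the log2 scale in NTC livers (adjusted p = 0.00302) and by 0.77 ± 0.123 in sgBap1 livers (adjusted p = 0.000416). Scaled to library size, Gclm in NTC livers was -0.09 (adjusted p = 0.498), which is -0.59 relative to the shifted median.

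Because both subunits are read from the same library, their ratio does not depend on how libraries are scaled. Per kb of exon, Gclc over Gclm was 1.401 and 1.12 in the NTC-Veh livers, 1.53 and 1.43 in the sgBap1-Veh livers, 3.68, 7.41 and 3.31 in the NTC-CCl4 livers and 4.03, 3.315 and 4.32 in the sgBap1-CCl4 livers. The lowest of the 6 CCl4 livers was thus above the highest of the 4 vehicle livers, with or without NTC-CCl4 replicate 2. Group means were 1.26 ± 0.201 (SD), 1.48 ± 0.0679, 4.80 ± 2.27 and 3.89 ± 0.518. The ratio was chosen after the values were seen and is a description, with no test.

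**Figure D3:**
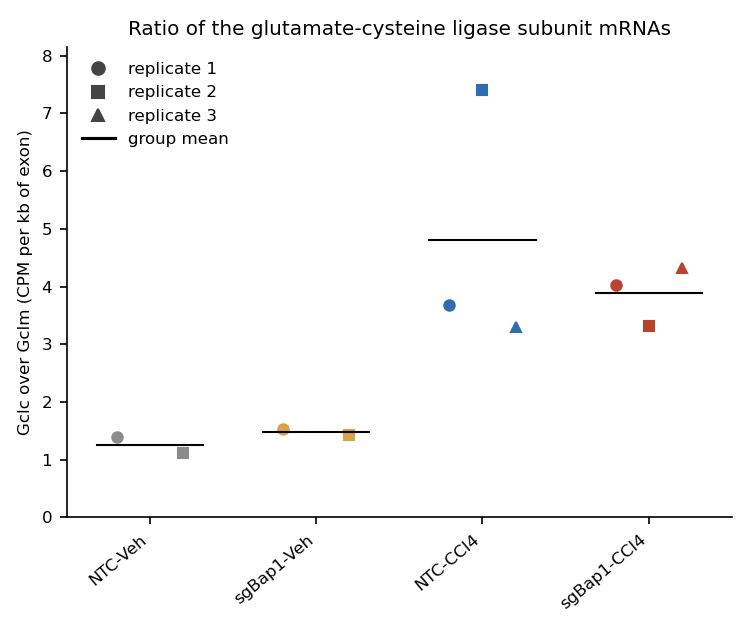
Ratio of Gclc to Gclm mRNA per kb of exon (vertical axis) in each liver, by group; symbols give the replicate and bars the group mean. The 4 vehicle livers lie between 1.12 and 1.53 and the 6 CCl4 livers between 3.31 and 7.41.

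In the thioredoxin branch, Srxn1 rose more than Txnrd1. Srxn1 (ENSMUSG00000032802.8, chr2:152105516-152111376, plus strand) encodes sulfiredoxin, which repairs overoxidised peroxiredoxins, and lay at 48.9 and 50.9 CPM in the NTC-Veh livers, 52.8 and 60.0 in the sgBap1-Veh livers, 135, 368 and 135 in the NTC-CCl4 livers and 192, 229 and 183 in the sgBap1-CCl4 livers. All 6 CCl4 livers were above all 4 vehicle livers, and apart from NTC-CCl4 replicate 2 the sgBap1-CCl4 livers were the higher ones. Srxn1 rose by 2.09 ± 0.441 in NTC livers (adjusted p = 0.00411) and by 1.84 ± 0.436 in sgBap1 livers (adjusted p = 0.00701), on the log2 scale. Without NTC-CCl4 replicate 2 these were 1.43 ± 0.13 (adjusted p = 3.2e-05) and 1.84 (adjusted p = 5.8e-06), and without sgBap1-Veh replicate 1 the second was 1.75 (adjusted p = 0.0554). Txnrd1 (ENSMUSG00000020250.10, chr10:82833951-82897712, plus strand), the cytosolic thioredoxin reductase, lay at 133 and 132 CPM in the NTC-Veh livers, 161 and 143 in the sgBap1-Veh livers, 209, 309 and 187 in the NTC-CCl4 livers and 197, 193 and 198 in the sgBap1-CCl4 livers. All CCl4 livers were again above all vehicle livers. Txnrd1 rose in NTC livers by 0.83 ± 0.183 (adjusted p = 0.00337), and was 0.36 ± 0.181 in sgBap1 livers (adjusted p = 0.111). Without NTC-CCl4 replicate 2 the values were 0.58 (adjusted p = 0.00134) and 0.36 ± 0.0932, which then passed (adjusted p = 0.00901).

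Nqo1 (ENSMUSG00000003849.8, chr8:107388225-107403206, minus strand) encodes the quinone reductase most often read as a sign of NRF2 activity. It lay at 10.9 and 11.3 CPM in the NTC-Veh livers, 11.8 and 12.8 in the sgBap1-Veh livers, 22.0, 27.4 and 13.6 in the NTC-CCl4 livers and 13.8, 22.9 and 15.7 in the sgBap1-CCl4 livers. Each CCl4 liver was above each vehicle liver, by little in NTC-CCl4 replicate 3 and sgBap1-CCl4 replicate 1. Nqo1 rose in NTC livers, by 0.92 ± 0.293 (adjusted p = 0.0249), and was 0.51 ± 0.291 in sgBap1 livers (adjusted p = 0.161). With each liver left out in turn, the value in sgBap1 livers ran from 0.27 to 0.66. The NTC call was lost in 5 of 17 alternatives, with adjusted p of 0.0671 without NTC-CCl4 replicate 2 (log2 fold change 0.68 ± 0.273), 0.0577 without NTC-CCl4 replicate 1, 0.116 and 0.101 without NTC-Veh replicates 1 and 2, and 0.0594 with no filter.

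Hmox1 (ENSMUSG00000005413.8, chr8:75093621-75100589, plus strand) encodes haem oxygenase 1, which breaks down haem and is made by hepatocytes under stress and by macrophages that clear red cells. It lay at 19.6 and 11.03 CPM in the NTC-Veh livers, 36.4 and 28.2 in the sgBap1-Veh livers, 93.2, 95.1 and 122 in the NTC-CCl4 livers and 107, 129 and 110.2 in the sgBap1-CCl4 livers. All 6 CCl4 livers were far above the vehicle livers, and among the vehicle livers both with the Bap1 guide were above both with the control guide. Hmox1 rose by 2.75 ± 0.254 in NTC livers (adjusted p = 2.11e-05) and by 1.83 ± 0.241 in sgBap1 livers (adjusted p = 0.000169), on the log2 scale. A list of 7 recruited macrophage and monocyte genes, led by Lyz2, moved alongside, with 7 of 7 called higher in both genotypes. Their sum was 75.9 and 55.9 CPM in the NTC-Veh livers, 140 and 112 in the sgBap1-Veh livers, 579, 651 and 738 in the NTC-CCl4 livers and 692, 828 and 571 in the sgBap1-CCl4 livers. Kupffer cell genes, of the resident macrophages, had 3 of 6 called higher in NTC livers, and 1 higher and 2 lower in sgBap1 livers. Of 6 stellate cell and fibroblast genes, 5 and 4 were called higher, so a rise with CCl4 was not particular to macrophage genes. Which cells the Hmox1 mRNA came from was not tested.

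**Figure D4:**
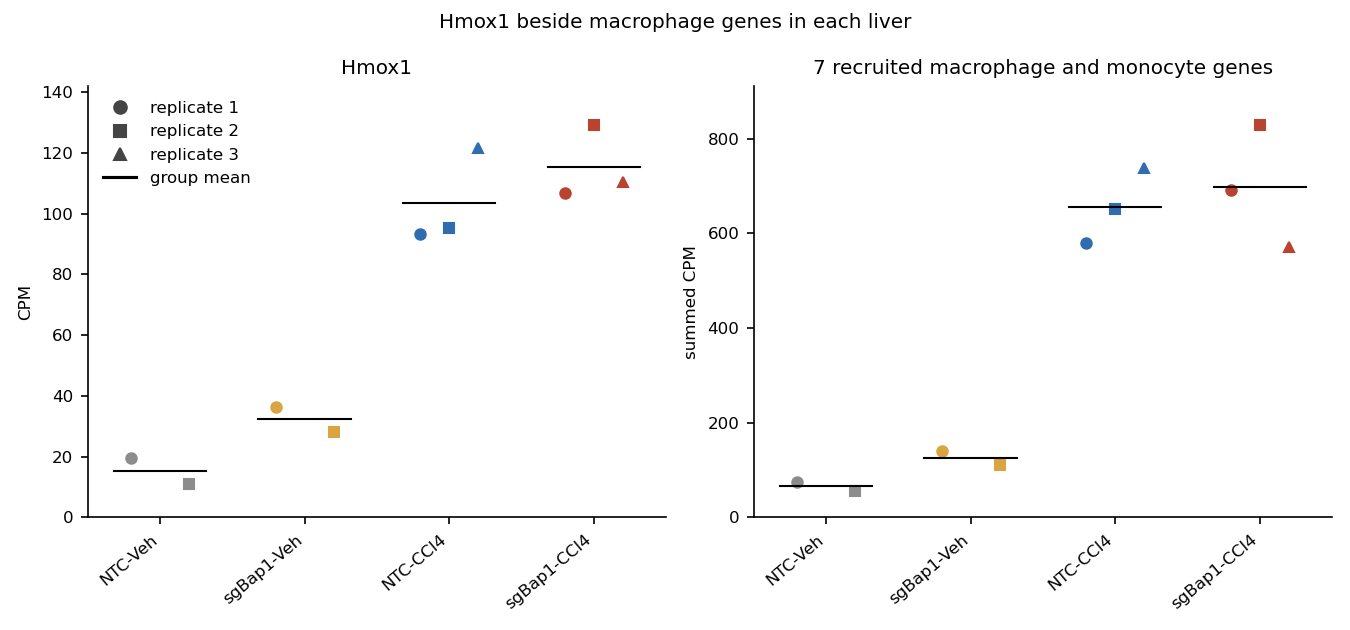
Hmox1 (CPM, left) and the summed level of 7 recruited macrophage and monocyte genes (CPM, right) in each liver, by group; symbols give the replicate and bars the group mean. Both are lowest in the NTC-Veh livers (Hmox1 19.6 and 11.03 CPM, sum 75.9 and 55.9 CPM), intermediate in the sgBap1-Veh livers and highest with CCl4.

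Osgin1 (ENSMUSG00000074063.10, chr8:119434124-119446256, plus strand), a growth inhibitor induced by oxidised lipids, was the member whose CCl4 livers lay furthest apart between the guides. It lay at 116 and 102 CPM in the NTC-Veh livers, 71.9 and 108 in the sgBap1-Veh livers, 216, 294 and 292 in the NTC-CCl4 livers and 153, 92.3 and 107 in the sgBap1-CCl4 livers. The NTC-CCl4 livers stood above all others, while the sgBap1-CCl4 livers overlapped the vehicle livers. Osgin1 rose in NTC livers by 1.29 ± 0.251 (adjusted p = 0.00183), and was 0.38 ± 0.243 in sgBap1 livers (adjusted p = 0.206). The second value was 0.12 (adjusted p = 0.742) and 0.71 (adjusted p = 0.0793) without sgBap1-Veh replicates 1 and 2 and 0.15 (adjusted p = 0.587) without sgBap1-CCl4 replicate 1, and it passed with library size alone (0.86, adjusted p = 0.00768).

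With vehicle, the Bap1 guide was compared with the control guide to see whether the pathway differed before injury. Hmox1 was the member that stood out, at 36.4 and 28.2 CPM against 19.6 and 11.03 CPM, a log2 fold change of 1.08 ± 0.255, whose unadjusted p of 0.00206 gave an adjusted p of 0.115. Nfe2l2 was higher too, at 126 and 134 against 109 and 112 CPM (0.23 ± 0.0866, adjusted p = 0.301), while log2 fold changes of the other members lay between -0.28 (Osgin1) and 0.20 (Txnrd1), apart from the barely counted Slc7a11. Leaving out sgBap1-Veh replicates 1 and 2 in turn put Osgin1 at -0.02 and -0.60, and leaving out NTC-Veh replicates 1 and 2 put Gclc, at 0.17 with all livers, at 0.31 and 0.05. edgeR called 0 of the 9 genes other than Slc7a11, beside 0.406% of all genes tested. At an unadjusted p under 0.05 there were 2 of the 9 and 2100 of all genes (12.3%), and DESeq2 called 1, Hmox1 (adjusted p = 0.00172). Hmox1 was also called without NTC-Veh replicate 1 (1.55, adjusted p = 0.0485), and its adjusted p ran up to 0.403 over the alternatives. Markers of Kupffer cells, the resident macrophages, moved the same way. Their 6 genes summed to 268 and 161 CPM in the NTC-Veh livers and 515 and 340 CPM in the sgBap1-Veh livers, with 6 of 6 higher, 4 at an unadjusted p under 0.05 and 0 called by edgeR. Other lists moved that way too. All 5 T and NK cell genes, all 4 B cell genes and 6 of 7 recruited macrophage and monocyte genes were higher. At an unadjusted p under 0.05 there were 3, 2 and 4 of these, with 0 called by edgeR. All 4 erythroid genes were also higher, whereas 0 of 7 hepatocyte genes were. The part of any of these cells in the Hmox1 level was not tested.

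With CCl4, the Bap1 guide was compared with the control guide to see whether the injured livers differed. Osgin1 was lower in all 3 sgBap1-CCl4 livers (153, 92.3 and 107 CPM) than in all 3 NTC-CCl4 livers (216, 294 and 292 CPM), a log2 fold change of -1.19 ± 0.218 with an unadjusted p of 0.000333 and an adjusted p of 0.0608. DESeq2 called it at an adjusted p of 7.12e-06, and so did edgeR with library size alone (adjusted p = 0.0482), with a range of 7.12e-06 to 0.168 over the alternatives. Gclm was also lower in every sgBap1-CCl4 liver, at 126, 107 and 124 against 133, 165 and 130.0 CPM (-0.26 ± 0.111, adjusted p = 0.324), and -0.15 ± 0.0993 (adjusted p = 0.549) without NTC-CCl4 replicate 2. Hmox1, at 0.16 ± 0.2 (adjusted p = 0.77), and Slc7a11, at 0.27 ± 0.352 (adjusted p = 0.782), overlapped between the guides, and with each liver left out in turn they ran from 0.07 to 0.29 and from -0.09 to 0.58. Nqo1 and Txnrd1 overlapped too, at -0.27 ± 0.251 (adjusted p = 0.676) and -0.26 ± 0.16 (adjusted p = 0.494), which without NTC-CCl4 replicate 2 were -0.03 (adjusted p = 0.976) and -0.01 (adjusted p = 0.966). Gclc and Srxn1 also depended on that liver, with Gclc at -0.62 ± 0.373 (adjusted p = 0.4985) with it and 0.02 (adjusted p = 0.977) without it, and Srxn1 at -0.08 (adjusted p = 0.952) with it and 0.58 ± 0.113 (adjusted p = 0.0911) without it. edgeR called 0 of the 10 genes, beside 0.329% of all genes tested. At an unadjusted p under 0.05 there were 2 of the 10 and 2376 of all genes (14%), and DESeq2 called 1, Osgin1.

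Whether CCl4 moved a gene by a different amount in the 2 genotypes was tested as an interaction, which uses the same livers as the comparisons above. The fitted differences of log2 fold change, sgBap1 minus NTC, were negative for 8 of the 9 genes other than Slc7a11, with a median of -0.41 beside -0.02 for all genes, and without NTC-CCl4 replicate 2 for 7 of the 9, with a median of -0.17. They reached -0.92 ± 0.323 for Hmox1 (adjusted p = 0.35; -1.39 and -0.56 without NTC-Veh replicates 1 and 2), -0.91 ± 0.341 for Osgin1 (adjusted p = 0.387; -0.59 without sgBap1-Veh replicate 2) and -0.79 ± 0.59 for Gclc (adjusted p = 0.724). For Hmox1 the 2 CCl4 groups lay side by side and the vehicle groups lay apart, whereas for Osgin1 the CCl4 groups lay apart. Neither of these gaps between guides was called by edgeR (adjusted p = 0.115 and 0.0608). Macrophage genes had negative values as well, with medians of -1.29 for the 6 Kupffer cell genes (6 below 0) and -0.79 for the 7 recruited macrophage and monocyte genes (6 below 0; median -0.42 without sgBap1-Veh replicate 1). Of these, edgeR called 0 in each list, with 5 and 4 at an unadjusted p under 0.05, and DESeq2 called 2 and 3. Negative values were not particular to macrophage genes. All 5 T and NK cell, 4 B cell and 4 erythroid genes lay below 0, with 0 called by edgeR. All 7 hepatocyte genes lay above 0, and each remaining marker list held genes above 0. The part of any of these cells in the Hmox1 value was not tested. Without NTC-CCl4 replicate 2 the values for Gclc and Srxn1 were -0.16 (adjusted p = 0.888) and 0.40 (adjusted p = 0.432), so the negative sign of Srxn1 rested on that liver. edgeR called 0 of the 9 members and 0% of all genes tested, with 2 members and 1764 genes (10.4%) at an unadjusted p under 0.05, and DESeq2 called 0 members and 406 genes. A smaller number of members called in sgBap1 livers than in NTC livers is therefore not a shown difference between the genotypes.

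The wider pathway was read from 9 lists written from general knowledge, which hold 79 genes besides the members, of which 77 were tested. Gpx2, with 0 to 3 counts in each vehicle liver, passed the filter through the CCl4 livers alone and is left out of the counts, and the counts of each list leave out the members. Of the other 76 genes, 20 rose and 27 fell in NTC livers (26.3% and 35.5%, beside 27.4% and 26.6% of all genes) and 18 rose and 28 fell in sgBap1 livers (23.7% and 36.8%, beside 29% and 28%). Their median log2 fold changes were -0.10 and -0.23, beside 0.03 and 0.04 for all genes. The 20 include Gsta1, which reached the filter cutoff in the sgBap1-Veh livers but not in the NTC-Veh livers. Its NTC call thus rests on vehicle counts near the floor. In NTC livers without NTC-CCl4 replicate 2, 18 rose and 33 fell, and in sgBap1 livers 22 rose and 33 fell. Scaled to library size, 34 were called higher and 14 lower in NTC livers and 29 and 17 in sgBap1 livers.

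Of 8 genes that control NRF2, 2 rose and 3 fell in each genotype. Of all genes, 27.4% were called higher and 26.6% lower in NTC livers, and 29% and 28% in sgBap1 livers. No list was tested against these shares. The small MAF partner Maff rose, from 4.60 and 4.35 to 10.4, 13.7 and 15.0 CPM in NTC livers (1.54 ± 0.185, adjusted p = 6.64e-05) and from 5.27 and 4.34 to 26.0, 21.4 and 19.98 CPM in sgBap1 livers (2.22 ± 0.189, adjusted p = 7.5e-06). Mafk rose less (0.53 and 0.76), while Mafg fell (-0.70 and -0.89, adjusted p = 0.00674 and 0.00154), so the 3 small MAF genes did not move as one. The fall of Mafg was lost with library size alone (adjusted p = 0.321 and 0.0814), and in NTC livers without NTC-Veh replicate 2 (adjusted p = 0.0683), where the control list held 1 gene called lower in place of 3. In sgBap1 livers, without sgBap1-Veh replicate 2, it also held 1 in place of 3. With library size alone, 5 of the 8 control genes were called higher and 0 lower in each genotype, as the median of all genes had moved by 0.50 and 0.52.

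Of 7 glutathione genes, 4 rose and 1 fell in each genotype (all genes: 27.4% and 26.6% in NTC, 29% and 28% in sgBap1 livers). In NTC livers 2 rose without NTC-Veh replicate 2, and 3 rose and 2 fell without NTC-CCl4 replicate 2. Slc3a2, the heavy chain that partners Slc7a11 in the cystine importer, rose from 43.2 and 40.3 to 96.7, 152 and 125 CPM in NTC livers (1.58 ± 0.195, adjusted p = 9.08e-05) and from 36.7 and 37.2 to 193, 205 and 147 CPM in sgBap1 livers (2.30 ± 0.202, adjusted p = 1.095e-05). Both chains of the importer were thus higher in every treated liver than in any vehicle liver. Gpx7, a peroxidase of the endoplasmic reticulum, rose (1.51 and 2.24), whereas Gpx1, the abundant cytosolic glutathione peroxidase, fell (-1.74 ± 0.144, adjusted p = 7e-06, and -2.004, adjusted p = 3.24e-06). Gsr and Gss, chosen after their values were seen as the genes for recycling glutathione and for the second step of its synthesis, rose mildly (Gsr 0.56 and 0.41, adjusted p = 0.0104 and 0.0416, and Gss 0.45 and 0.84, adjusted p = 0.0416 and 0.00176). In NTC livers neither was called without NTC-Veh replicate 2 (adjusted p = 0.0928 for Gsr and 0.26 for Gss), and Gss was not called in 6 of the 17 alternatives, with an adjusted p of 0.0509 without NTC-Veh replicate 1, 0.0524 and 0.126 without NTC-CCl4 replicates 1 and 2, 0.0569 without sgBap1-CCl4 replicate 1 and 0.0939 with the replicate block. In sgBap1 livers Gsr was not called in 8 of the 17, up to an adjusted p of 0.199 without sgBap1-Veh replicate 1.

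Slc7a11 also has a stretch of another kind in its promoter. The core of the amino acid response element, TGATGNAA, which ATF4 is known to bind when amino acids are short, was searched for after the values were seen. It occurred in Slc7a11 alone of the 8 members with a window, in a pair of copies, and in 1219 of 27025 genes overall (4.51%) and 2 of 69 wider list genes. Its copies lie at chr3:50443656-50443695 (66 to 59 bases before the start) and chr3:50443637-50443676 (47 to 40, on the opposite strand), both shown on the minus strand of GRCm38.p6 because Slc7a11 had the largest ratio of the 10 genes, with capitals for the match.
Slc7a11 first copy: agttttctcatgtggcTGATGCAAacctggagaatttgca
Slc7a11 second copy: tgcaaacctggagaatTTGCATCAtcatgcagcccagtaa

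Of 12 thioredoxin and peroxiredoxin genes, 8 fell and the other 4 did not pass the test, in each genotype. Among all genes, 26.6% were called lower in NTC livers and 28% in sgBap1 livers. Prdx6, a peroxiredoxin that also uses glutathione, fell (-1.12 and -1.32), as did Txnrd3 (-1.09 and -1.12), a testis-rich reductase, and mitochondrial Txn2 (-0.76 and -0.77). Txnip, the inhibitor of thioredoxin, fell in NTC livers (-1.60 ± 0.348, adjusted p = 0.00467) and was -0.87 in sgBap1 livers (adjusted p = 0.0602). Its NTC-Veh livers lay at 266 and 120 CPM, and the fall was -0.92 (adjusted p = 0.0402) without replicate 1 of them and -2.06 (adjusted p = 0.00089) without replicate 2. Of 4 enzymes that remove superoxide and peroxide directly, 3 fell in each genotype, namely Cat (-1.74 and -2.16), Sod1 (-1.10 and -1.14) and Sod2 (-1.06 and -1.26), and Sod3 did not pass. With library size alone the thioredoxin list had 3 called higher and 4 lower in NTC livers and 1 and 4 in sgBap1 livers, and the superoxide list 1 and 3 in each.

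Of 20 quinone and electrophile genes, 6 rose, Gsta1 counted, and 5 fell in NTC livers (30% and 25%, beside 27.4% and 26.6% of all genes) and 4 rose and 5 fell in sgBap1 livers (20% and 25%, beside 29% and 28%). Cbr3, a carbonyl reductase, rose in NTC livers (3.502 ± 1.11, adjusted p = 0.0277) and was 1.99 in sgBap1 livers (adjusted p = 0.16). It reached 11.4 CPM in NTC-CCl4 replicate 2 and 1.98 and 1.30 CPM in the other 2 livers, and without that liver the rise was 1.91 ± 0.431 (adjusted p = 0.00535). The call on all livers was lost in 5 of the 17 alternatives, with adjusted p of 0.122 and 0.141 without NTC-Veh replicates 1 and 2, 0.0544 without sgBap1-CCl4 replicate 2, 0.088 with no filter and 0.125 with the compared groups alone. Cyp2a5, a cytochrome P450 described as an NRF2 target, fell (-2.82 ± 0.762, adjusted p = 0.0151, and -3.98), more so without NTC-CCl4 replicate 2 in NTC livers (-4.26 ± 0.245, adjusted p = 4.97e-06), which held 232 CPM against 37.8 and 38.3 CPM. Its NTC call was lost without NTC-Veh replicate 2 (adjusted p = 0.0514) and with the compared groups alone (adjusted p = 0.0904). Of the 50-base stretches of Cyp2a5, 37% are shared with other genes, most often Cyp2a4. For Gsta1 this was 90.5%, most often with Gsta2, so the share of each gene in these counts is uncertain. Gsta1 lay at 0.125 and 0.0987 CPM in the NTC-Veh livers, near the floor of 3 counts, 0.944 and 1.03 in the sgBap1-Veh livers, 23.2, 70.4 and 28.7 in the NTC-CCl4 livers and 41.5, 80.0 and 63.2 in the sgBap1-CCl4 livers. It rose in sgBap1 livers (5.96, adjusted p = 0.000165), and no fitted change is given for it in NTC livers. Its NTC call, counted among the 6, rests on NTC-Veh livers that did not reach the filter cutoff. Ptgr1, which reduces reactive aldehydes, rose (2.15 and 2.42). The list held, without NTC-CCl4 replicate 2, 8 called lower in place of 5 in NTC livers, and 6 called higher and 9 lower in place of 4 and 5 in sgBap1 livers.

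Export pumps that carry conjugates out of the hepatocyte went both ways, with 2 higher and 3 lower of 6 in each genotype. Abcc1 (3.08 ± 0.294, adjusted p = 2.08e-05, and 2.39) and Abcc4 (2.80 and 2.61), which face the blood, rose, whereas Abcc2, which faces the bile (-0.79 and -0.96), and Abcc3, another pump of the blood face (-0.69 and -1.06), fell. Of the 6 NADPH genes 2 rose and 2 fell in NTC livers and 3 rose and 2 fell in sgBap1 livers. Beside both lists, 27.4% and 26.6% of all genes rose and fell in NTC livers, and 29% and 28% in sgBap1 livers. G6pdx, the entry enzyme of the pentose phosphate pathway, rose (2.43 ± 0.306, adjusted p = 0.0001465, and 1.44), as did Pgd of the same pathway (1.13 and 0.63), while Idh1 (-0.85 and -1.24) and Me1 (-0.81 and -1.52) fell. With library size alone, 2 pumps were called higher and 0 lower in NTC livers, where the adjusted p of Abcc2 was 0.124, and 2 and 2 in sgBap1 livers. NADPH genes were 4 and 1, and 4 and 2.

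Of 8 haem and iron genes, Hmox1 not counted, 2 rose and 2 fell in NTC livers and 1 rose and 3 fell in sgBap1 livers. The shares of all genes were 27.4% and 26.6% in NTC livers and 29% and 28% in sgBap1 livers. Slc48a1, a haem transporter, rose (0.67 and 0.80), Fech, the last enzyme of haem synthesis, fell (-0.58 and -0.54), Blvra, which reduces the biliverdin that HMOX1 makes, rose in NTC livers (0.57, with 0.18 and an adjusted p of 0.199 in sgBap1 livers), and Slc40a1, the iron exporter ferroportin, fell in sgBap1 livers (-0.49, with 0.09 and an adjusted p of 0.555 in NTC livers). Without NTC-Veh replicate 1 the adjusted p of Slc48a1 in NTC livers was 0.0679 and 1 gene was called each way, and without NTC-Veh replicate 2 it was 0.0811 and 1 gene was called higher. In sgBap1 livers, without sgBap1-Veh replicate 2, that of Slc40a1 was 0.0666 and 1 gene was called each way, and without NTC-CCl4 replicate 2 the list held 2 higher and 4 lower. Scaled to library size, 5 were called higher and 0 lower in NTC livers and 3 and 0 in sgBap1 livers, and neither Fech (adjusted p = 0.387 and 0.588) nor Slc40a1 (0.891) was called. Of 6 other described NRF2 targets, 2 rose in each genotype and the rest did not pass, with 4 called higher by library size alone in each, and 1 in NTC livers without NTC-Veh replicate 1 or 2. Slc6a9, a glycine transporter, rose (0.49 and 0.84), and was lost in NTC livers without NTC-Veh replicate 1 (adjusted p = 0.0659) or 2 (adjusted p = 0.0715). Between the guides and in the interaction, edgeR called 0 genes of these lists, with 11, 11 and 9 of the 76 at an unadjusted p under 0.05 (14.5%, 14.5% and 11.8%, beside 12.3%, 14% and 10.4% of all genes), and DESeq2 called 4, 5 and 0 of these 76 genes.

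**Figure D5:**
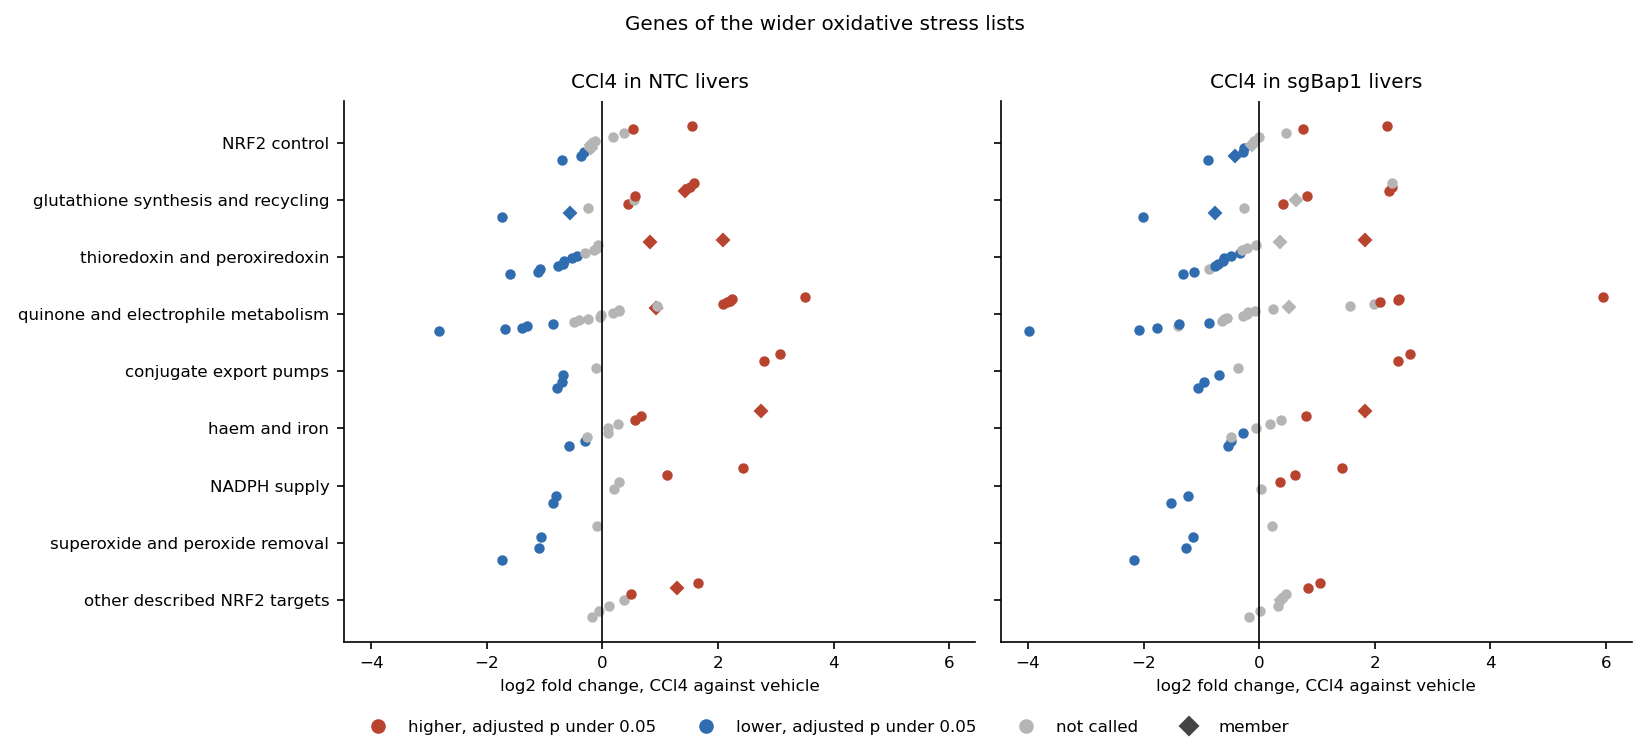
Log2 fold change of CCl4 against vehicle (horizontal axis) for each tested gene of 9 lists (vertical axis) except Slc7a11, Gpx2 and, in NTC livers, Gsta1, whose vehicle counts are too few there, in NTC livers (left) and sgBap1 livers (right); red and blue mark higher and lower calls at an adjusted p under 0.05, and diamonds the members. Of 76 genes other than members, 20 (counting Gsta1, not plotted there) are called higher and 27 lower in NTC livers. With library size alone (not plotted) these are 34 and 14.

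Hepatocyte genes were read in the same livers. Pericentral hepatocyte genes, which include the P450 that activates CCl4, summed to 15277 and 13632 CPM in the NTC-Veh livers and 12002 and 13291 CPM in the sgBap1-Veh livers, against 845, 1255 and 1053 CPM in the NTC-CCl4 livers and 965, 1269 and 1246 CPM in the sgBap1-CCl4 livers. All 6 genes fell in both genotypes. Hepatocyte genes as a whole summed to 156320 and 127010 CPM in the NTC-Veh livers, 111770 and 117800 CPM in the sgBap1-Veh livers, 81854, 88433 and 78206 CPM in the NTC-CCl4 livers and 90770, 70488 and 90075 CPM in the sgBap1-CCl4 livers, with 5 of 7 called lower in NTC livers and 2 of 7 in sgBap1 livers. In NTC livers these were 2 without NTC-Veh replicate 1 and 3 without NTC-CCl4 replicate 1 or 3, and in sgBap1 livers 1 without sgBap1-Veh replicate 1 or 2 or NTC-CCl4 replicate 1 and 4 without sgBap1-CCl4 replicate 3. The rises of Srxn1, Gclc and Txnrd1 in NTC livers, and of Srxn1 in sgBap1 livers, thus stood where TMM-scaled hepatocyte sums were lower. The falls of Gclm, Cat and Gpx1 in both genotypes went the same way as those TMM-scaled sums. The TMM factors ran from 0.786 to 0.851 in vehicle livers and from 1.08 to 1.24 in CCl4 livers. Scaled to library size alone, hepatocyte sums stayed lower with CCl4 in NTC livers, but sgBap1-Veh and sgBap1-CCl4 livers overlapped. The part of cell composition in either was not tested.

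The genes nearest in pattern to Nqo1 and to Nfe2l2 were found by the root mean square difference of centred log2 CPM over the 10 livers. For Nqo1, whose own values spanned 1.33 log2 units, these were Zfp783 (0.17), Pdlim2 (0.191) and Lipo3 (0.204). For Nfe2l2, which spanned 0.53, they were Zdhhc7 (0.0603), Ccdc90b (0.0629) and Mfsd1 (0.0639), and none of the other 9 members was among either set.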

How the data were processed

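RNA-seq of 10 mouse livers was read from the deposited matrix, in which the authors give estimated counts per gene from Salmon 1.4.0 after STAR 2.7.6a alignment to GRCm38 with GENCODE vM25. Of the values, 9.22% were not whole, and all were rounded. The members and lists were chosen with earlier results of these data known.

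Genes were filtered by group with edgeR 4.0.16 (R 4.3.3, limma 3.58.1), libraries scaled by TMM and 1 quasi-likelihood model fitted to 4 group means. It gave 5 comparisons, with Benjamini-Hochberg adjustment over 17015 genes and a threshold of 0.05. Standard errors come from the F statistic. Alternatives were DESeq2 1.42.0 (size factors, Wald test), library size alone, no filter, a replicate block, only the groups compared, each liver left out and, chosen after seeing the data, the legacy quasi-likelihood method. Comparisons of the guides and of CCl4 share livers.

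Named genes are the 10 members, Bap1, 3 nearest patterns each to Nqo1 and Nfe2l2, and from each of 9 pathway lists up to 3 genes per comparison with the largest absolute log2 fold change among those with an adjusted p under 0.05 and a mean of at least 100 counts. Gsr and Gss were added after their values were seen. 12 lists of cell type markers were also read. Positions and exon lengths are from GENCODE vM21, an earlier release than the counts, and promoters from RefSeq. Tables and figures used Python 3.11.15, pandas 2.3.3 and matplotlib 3.10.9. The authors name a stranded mRNA library kit but not the strand setting of Salmon. How far genes on the opposite strand that overlap Keap1, Gclm, Txnrd1 and Slc7a11 add to their counts could therefore not be judged.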

Additional observations from a re-analysis of the deposited data

How the results depend on the processing

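Over 17 alternatives, the results of the 9 members other than Slc7a11 in NTC livers gave 139 of their settings with the same direction and call, 10 with a lost call, 2 with a gained call and 2 with a turned sign; in sgBap1 livers these were 141, 1, 9 and 2. A group left with 1 liver is assumed to vary like the others, and the interaction has no value with only the groups compared. With library size alone, signs turned for Nfe2l2 (0.28) and Keap1 (0.27) in NTC livers and for Nfe2l2 (0.067) and Keap1 (0.35) in sgBap1 livers. The sign of Keap1 between guides with CCl4 also turned (0.0083). Of the 9 members other than Slc7a11, 1 was then called between guides with CCl4. Genes called were 32 between guides with vehicle and 2 in the interaction. With no filter, 94 genes were called between guides with CCl4 and 34 in the interaction. DESeq2 called 1 member between guides with vehicle and 1 with CCl4, and 548, 480 and 406 genes for vehicle, CCl4 and interaction. With the replicate block, Srxn1 between guides with CCl4 was 0.042 and genes called between guides were 1 with vehicle and 24 with CCl4; replicate numbers do not pair samples, with deviations correlated at -0.149 to 0.022. With only the groups compared, 27 and 28 genes were called. With each CCl4 liver left out in turn, genes called ran 8191 to 9374 in NTC livers and 8767 to 9599 in sgBap1 livers. Between guides they ran 22 to 150 with vehicle and 1 to 71 with CCl4, and in the interaction 0 to 7. No CCl4 liver belongs to the vehicle comparison, so its range does not show how far the calls depend on its own livers. None of these ranges covers leaving out a vehicle liver, which leaves 1 liver in its group. Fold changes were read with each liver of any group left out in turn. Between guides with vehicle, Keap1 ran -0.18 to 0.041, Gclm -0.13 to 4.7e-05, Osgin1 -0.60 to -0.021 and Gclc 0.048 to 0.31. With CCl4, Nfe2l2 ran -0.015 to 0.040, Keap1 -0.057 to 0.029, Gclc -0.88 to 0.018, Srxn1 -0.32 to 0.58 and Slc7a11 -0.088 to 0.58. In the interaction, Keap1 ran -0.047 to 0.18 and Srxn1 -0.50 to 0.40. The cause of these changes was not tested. Depth limits Slc7a11 with vehicle, at 1 to 5 counts a liver.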

Other observations

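Other marker lists moved as follows with CCl4, in NTC and in sgBap1 livers. Of the neutrophil genes tested, Mmp8 (1 to 6 counts in each vehicle liver) passed the filter through the CCl4 livers alone, and the other 3 were called higher in both. The neutrophil genes summed to 3.08 to 6.22 CPM in vehicle livers and 15.4 to 24.7 CPM in CCl4 livers. Stellate cell and fibroblast genes had 5 and 4 of 6 called higher, from 90.2 to 142 CPM up to 326 to 1196 CPM, the highest in sgBap1-CCl4 replicate 2, with 3 called higher in NTC livers without NTC-Veh replicate 1. Kupffer cell genes had 3 of 6 called higher in NTC livers, and 1 higher and 2 lower in sgBap1 livers, where without sgBap1-Veh replicate 2 there were 0 higher and 1 lower, and 1 lower without sgBap1-Veh replicate 1 or any sgBap1-CCl4 replicate. Sinusoidal endothelial genes had 2 of 5 called higher in NTC livers, and 2 higher and 2 lower in sgBap1 livers, where 0 were called lower without sgBap1-Veh replicate 1, sgBap1-CCl4 replicate 1 or sgBap1-CCl4 replicate 2, and 1 without either NTC-Veh replicate or NTC-CCl4 replicate 3. Bile duct genes had 1 of 4 called higher in both, with Cftr, which passed through the CCl4 livers alone, left out. T and NK cell genes had 1 of 5 called higher in NTC livers and B cell genes 3 of 4, and neither list had a call in sgBap1 livers (smallest adjusted p 0.207 and 0.362, edgeR). Without NTC-Veh replicate 2 both lists had 0 called in NTC livers too, and B cell genes had 1 without NTC-CCl4 replicate 3. Erythroid genes, led by Hbb-bs, had 3 of 4 called higher in NTC livers and 0 in sgBap1 livers, with a smallest adjusted p of 0.182. In NTC livers these became 0 without NTC-Veh replicate 2 and 1 without sgBap1-CCl4 replicate 2. Of 6 adipocyte genes 2 were tested, with 1 called higher in NTC livers (0 without either NTC-Veh replicate and 2 without sgBap1-CCl4 replicate 2) and 2 in sgBap1 livers (0 without sgBap1-Veh replicate 1, and 1 without sgBap1-Veh replicate 2, either NTC-Veh replicate or any NTC-CCl4 replicate), where sgBap1-CCl4 replicate 2 held 256 CPM of Fabp4.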
